A study of Mus musculus with 13 samples.

Results

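mmu-miR-192-5p, mmu-miR-194-5p and mmu-miR-215-5p are 3 of the 1354 microRNAs (miRNAs) in a count table of plasma vesicles and 3 of the 1164 in a table of tumour cell vesicles. They were taken by name, because their hairpins form 2 small gene clusters, and are written below without the mouse prefix. The study set plasma vesicles of Balb/C mice bearing C26 tumours, labelled cachectic, against those of control Balb/C mice, labelled healthy, and profiled the vesicles that C26 cells release. C26 is a colon adenocarcinoma line that causes wasting of muscle and body mass when grown in mice. The C26-bearing mice carried subcutaneous tumours and were killed 14 days after the injection (6 libraries). The control mice gave 4 libraries, and the vesicles from serum-free medium of cultured C26 cells, collected over 48 h, gave 3. The sources used here state neither age nor sex of the mice. Control replicates 2 and 3 each carry 2 numbers in their descriptions, with no meaning stated, and no source ties a library to 1 animal. The p-values therefore measure only how these libraries vary, which may be technical.

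The miR-192, miR-194 and miR-215 genes are known for their high expression in the epithelium of the intestine, in liver and in kidney, where the hepatocyte nuclear factors drive them. miR-192 and miR-215 have the same seed, the stretch that pairs with target messenger RNAs, and are known to slow the cell cycle downstream of p53. miR-194 has another seed and is a marker of the differentiated intestinal epithelial cell, and circulating miR-192 has been studied as a sign of liver injury.

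The mature sequences are shown because they decide what the counts can and cannot separate. They are from RefSeq (GRCm38.p6), 5′ to 3′, with the seed (bases 2 to 8) in capitals. Which build the authors used was not given in the sources used here.
miR-192-5p: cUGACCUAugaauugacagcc
miR-215-5p: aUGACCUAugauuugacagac
miR-194-5p: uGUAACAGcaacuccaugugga
miR-194-1-3p: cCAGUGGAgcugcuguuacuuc
miR-194-2-3p: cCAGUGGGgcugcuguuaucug

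miR-192-5p and miR-215-5p are 21 bases long and are identical at 18. The 3 substitutions, with the miR-192-5p base first and positions counted from 1 at the 5′ end, are C1A, A12U and C20A. No other annotated mature miRNA has either seed. miR-194-5p is made from 2 hairpins with the same mature sequence of 22 bases, so its counts cannot be assigned to either. Mir194-2 (chr19:6264643-6264728) lies 115 bases before Mir192 (chr19:6264844-6264932), on the plus strand, with no other annotated gene over them. Mir194-1 (chr1:185313319-185313385) lies 195 bases before Mir215 (chr1:185313581-185313692), also on the plus strand. This pair is inside the long non-coding RNA gene 2010103J01Rik, where Mir194-1 is intronic and Mir215 overlaps an exon, and opposite an intron of Iars2, a mitochondrial isoleucyl-tRNA synthetase on the minus strand. How reads were shared between miR-192-5p and miR-215-5p was not given in the sources used here.

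Other arms of these hairpins could tell the 2 miR-194 genes apart, but they were hardly read. In plasma miR-194-1-3p had 1 count and miR-194-2-3p 1 count over all 10 libraries, beside 414 of miR-194-5p. miR-215-3p had 20 counts in plasma, found in 4 libraries, beside 3730 of miR-215-5p. In C26 vesicles miR-194-2-3p had 3 counts and miR-215-3p 1. miR-192-3p was not analysed here.

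Plasma libraries were shallow and uneven, from 7962 to 131385 counts, and C26 vesicle libraries held 112357 to 170571. The limit set by 3 counts is 22.8 CPM (counts scaled to a common library total) in the deepest plasma library and 377 in the shallowest. In 5 plasma libraries, C26-bearing replicates 1 to 4 and control replicate 4, miR-5119 took between 26.6% and 58.7% of the counts, against at most 2.55% in the other 5. The descriptions of these 5 libraries carry the consecutive sheet numbers 18 to 22. All controls carry 15 to 18 and all C26-bearing libraries 19 to 24. Tumour status therefore cannot be told apart from sheet number, also within the libraries with little miR-5119 (15 to 17 against 23 and 24). What the sheet numbers stand for is not stated, so the fold changes of the 3 miRNAs and the ratios between them are also given within these 2 sets of libraries. Fold changes of other miRNAs are over all 10 plasma libraries unless said.

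miR-192-5p was the most abundant of the 3 in 8 of 10 plasma libraries. Levels are CPM after TMM scaling, which corrects for differences in library make-up. Control replicates 1 to 4 had 28902, 21670.0, 11315 and 10886 TMM-scaled CPM of miR-192-5p, from 3289, 1406, 2005 and 63 counts. C26-bearing replicates 1 to 6 had 21013, 13695, 6107, 8850.2, 2083 and 3674, from 392, 1093, 257, 87, 66 and 105 counts. The groups overlapped, with C26-bearing replicates 3 to 6 under the lowest control. The lowest were replicates 5 and 6, where miR-192-5p ranked 54 and 42 among all miRNAs of the library, while it ranked between 5 and 15 in controls.

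miR-215-5p had the next highest read level in the same 8 libraries. Control replicates 1 to 4 had 10712, 8646, 8138 and 2592 TMM-scaled CPM, from 1219, 561, 1442 and 15 counts. C26-bearing replicates 1 to 6 had 1876, 1779, 1616, 3255, 2524 and 4759, from 35, 142, 68, 32, 80 and 136 counts. Control replicate 4, the shallowest library, was the only control among the C26-bearing values, and the other 3 controls lay above all 6. C26-bearing replicates 5 and 6 were the only plasma libraries with more miR-215-5p than miR-192-5p.

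miR-194-5p was the scarcest in every plasma library, though both clusters encode it. Control replicates 1 to 4 had 1599, 555, 570.0 and 691 TMM-scaled CPM, from 182, 36, 101 and 4 counts. C26-bearing replicates 1 to 6 had 375, 526, 190.1, 916, 599.6 and 209.96, from 7, 42, 8, 9, 19 and 6 counts. The groups overlapped, and control replicate 1 stood well above the other controls. With 4 to 9 counts in 5 of the 10 libraries, its level was known only roughly: the 4 counts of control replicate 4 make 0.0502% of that library (95% Wilson interval 0.0195% to 0.129%, counting error only).

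**Figure D1:**
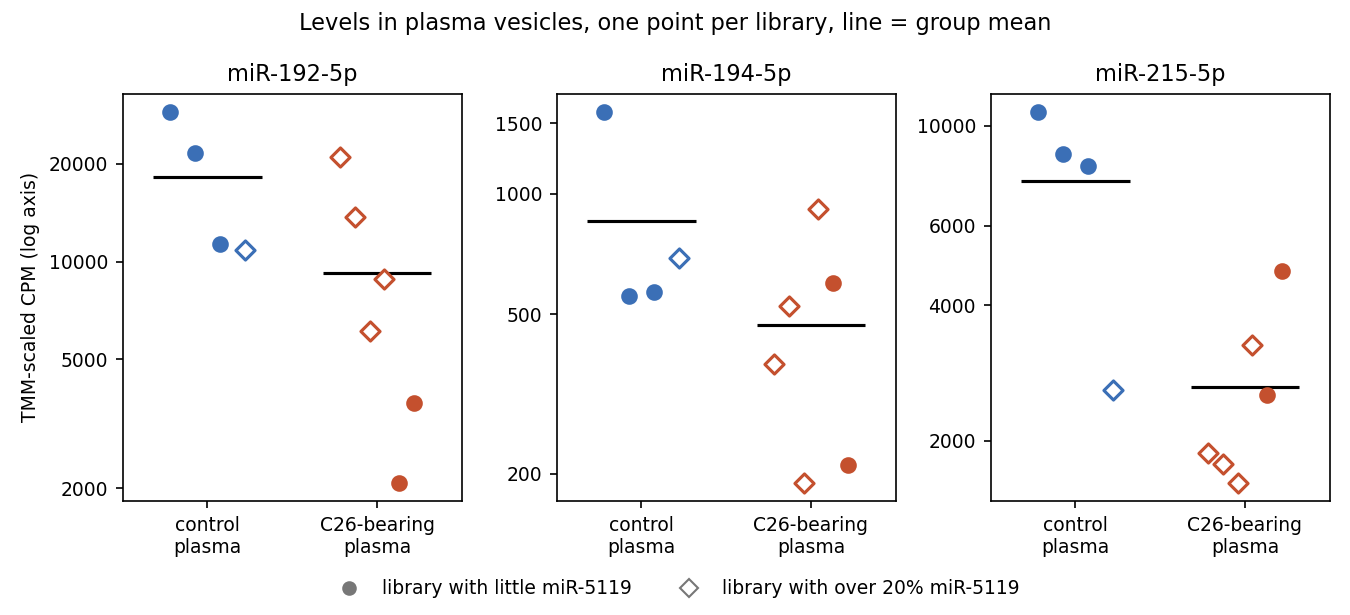
TMM-scaled CPM (log axes) of each miRNA in the 4 control and 6 C26-bearing plasma libraries; each point is 1 library, lines are group means, and open diamonds are libraries with over 20% miR-5119. For miR-215-5p 3 of 4 controls lie between 8138 and 10712, above all C26-bearing libraries, and the fourth at 2592.

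None of the 3 passed the test between C26-bearing and control plasma, and all 3 had lower means in C26-bearing mice. The levels of miR-215-5p were 2635 ± 1205 (SD, n = 6, TMM-scaled CPM) in the tumour-bearing group and 7522 ± 3470.1 (SD, n = 4) in the control group. Its log2 fold change was -1.52 (SE 0.465), with an edgeR quasi-likelihood adjusted p of 0.304 (unadjusted 0.00708, the second smallest p). The levels of miR-192-5p were 9237 ± 7080.0 and 18193 ± 8708, a log2 fold change of -0.98 (SE 0.604, edgeR adjusted p = 0.636). The levels of miR-194-5p were 469 ± 273 and 854 ± 501, a log2 fold change of -0.90 (SE 0.587, edgeR adjusted p = 0.651). In bulk vesicle RNA, fewer vesicles of a kind and less RNA in each cannot be told apart.

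Against the background of the same fit, edgeR called 0 of 130 miRNAs (0% called). On the same 130, limma voom called 17, and DESeq2 called 4 but gave 17 of them no adjusted p. At an unadjusted p under 0.05 edgeR gave 15 (11.5% called), 6 of them lower in C26-bearing mice (4.62% called) and 9 higher (6.92% called), and 1 of the 3 members was among the 6. That count moved with single libraries. It was 30 without control replicate 4 (5 lower, 25 higher) and 23 without C26-bearing replicate 6 (10 lower, 13 higher). It was 9 without C26-bearing replicate 3 (4 lower, 5 higher), 9 without control replicate 1 or control replicate 3 (6 lower, 3 higher each), and 8 without control replicate 2 (5 lower, 3 higher). The log2 fold change was below 0 for 64 of 130 miRNAs (49.2%), beside 3 of 3 members. A value at or below that of miR-215-5p was found for 5.38% of all miRNAs tested, at or below miR-192-5p for 10.8% and at or below miR-194-5p for 13.1%. Only 1 miRNA (0.769%) had all C26-bearing libraries below all controls, and it was not a member.

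miR-215-5p had the largest difference over all libraries, and miR-192-5p where miR-5119 was low or was a term in the fit; the difference between the members was not tested. Within the 5 libraries with little miR-5119 (2 C26-bearing, 3 control), miR-192-5p had 2083 and 3674 TMM-scaled CPM in C26-bearing mice against 11315 to 28902 in controls. Its log2 fold change there was -2.79 (SE 0.612, edgeR adjusted p = 0.103, unadjusted 0.00219). Within the 5 libraries rich in miR-5119 it was 0.23 (SE 0.909, edgeR adjusted p = 0.966), with the only control, at 10886, inside the C26-bearing range of 6107 to 21013. That value rests on 1 control with 63 counts of miR-192-5p, assumed to vary like the other libraries, so its sign has no replicate check. With a term for the miR-5119 set the value for miR-192-5p was -1.88 (SE 0.764, edgeR adjusted p = 0.413), and over all alternatives its adjusted p ran from 0.103 to 0.998.

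For miR-215-5p the same split gave -1.30 (SE 0.483, edgeR adjusted p = 0.400) in the libraries with little miR-5119 and -0.31 (SE 0.784, edgeR adjusted p = 0.966) in those rich in it. With the term it was -0.97 (SE 0.420, edgeR adjusted p = 0.413), smaller in size than the -1.88 of miR-192-5p, while over all libraries miR-215-5p had the larger value. The one call was for miR-215-5p with limma voom and sample quality weights (log2 fold change -1.83, adjusted p = 0.0269), a fit that called 17 of 130 miRNAs. DESeq2, which called 4, gave -1.37 (adjusted p = 0.0566). Over all alternatives the adjusted p of miR-215-5p ran from 0.0269 to 0.998. For miR-194-5p the values were -1.12 (SE 0.762) with little miR-5119, -0.53 (SE 1.13) with much and -0.95 (SE 0.706) with the term, and without control replicate 1 its log2 fold change was -0.42.

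**Figure D2:**
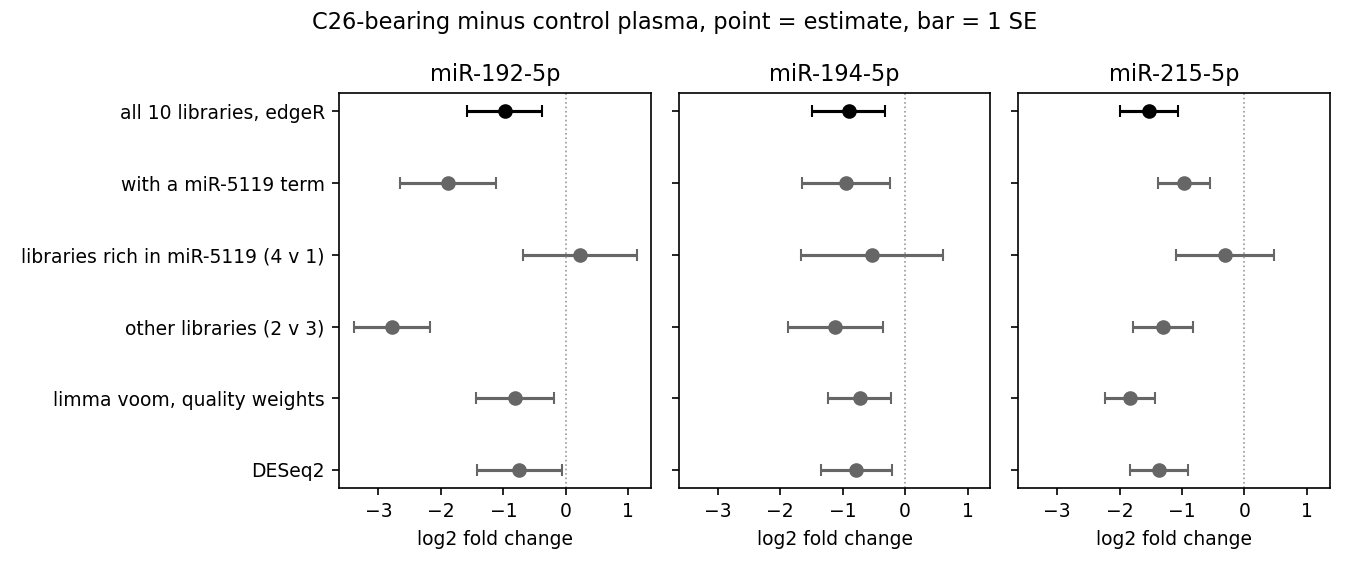
Log2 fold change of each miRNA, C26-bearing minus control plasma, under 6 fits; points are estimates and bars 1 SE. The estimate for miR-192-5p runs from -2.79 in the libraries with little miR-5119 to 0.23 in those rich in it, which hold 1 control, while those for miR-215-5p and miR-194-5p stay below 0.

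Ratios within a library do not depend on scaling. miR-215-5p and miR-192-5p share a seed but lie in different clusters. With 0.5 added to each count, the ratio of miR-215-5p to miR-192-5p ran from 0.0904 to 1.29 over the plasma libraries, a 14.3-fold range. It was 0.371, 0.399, 0.719 and 0.244 in control replicates 1 to 4. It was 0.0904, 0.130, 0.266, 0.371, 1.21 and 1.29 in C26-bearing replicates 1 to 6. C26-bearing libraries held both the lowest and the highest values, on each side of all controls.

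The intervals that follow cover counting error only, with reads taken as independent, and give no measure of the spread between replicates. Of the summed counts of miR-192-5p and miR-215-5p, miR-215-5p made 8.20% in C26-bearing replicate 1 (95% Wilson interval 5.95% to 11.2%) and 56.4% in replicate 6 (50.1% to 62.5%). The share was 27.0% (25.8% to 28.4%) in control replicate 1 and 41.8% (40.2% to 43.5%) in control replicate 3. The 5 libraries rich in miR-5119 had ratios of 0.0904 to 0.371 and the other 5 of 0.371 to 1.29. How miR-5119 or its sets of libraries bear on this ratio was not tested. The lowest of the second set, control replicate 1 at 0.3707, was just under the highest of the first, C26-bearing replicate 4 at 0.3714.

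Between the groups the log2 ratio of miR-215-5p to miR-192-5p was -1.52 ± 1.60 (SD, n = 6) with tumours and -1.32 ± 0.642 (SD, n = 4) without. The difference was -0.20 (two-sided exact permutation p = 0.824, and 0.824 after adjustment over the 3 ratios). It turned to 0.19 without C26-bearing replicate 1 and to 0.08 without C26-bearing replicate 2 or control replicate 3. In the libraries with little miR-5119 it was 1.40 (exact permutation p = 0.200, adjusted 0.300), and both C26-bearing libraries lay above all 3 controls there. Within those rich in miR-5119 it was -0.40 (exact permutation p = 1.00), with 1 control. A set of 5 libraries cannot reach 0.05: the smallest possible p is 0.1 for 2 against 3 and 0.2 for 4 against 1.

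The ratio of miR-194-5p to miR-192-5p, neighbours on chromosome 19, was 0.0555, 0.0260, 0.0506 and 0.0709 in control replicates 1 to 4. In C26-bearing replicates 1 to 6 it was 0.0191, 0.0389, 0.0330, 0.109, 0.293 and 0.0616. C26-bearing replicate 5 had the highest ratio, with 19 counts of miR-194-5p beside 66 of miR-192-5p, a share of 22.4% of their sum (95% Wilson interval 14.8% to 32.3%). In the other plasma libraries this share was between 1.75% and 9.38%. The log2 ratios were -4.05 ± 1.40 (SD, n = 6) and -4.39 ± 0.620 (SD, n = 4). The difference was 0.34 (exact permutation test, two-sided p = 0.686, adjusted 0.824), and -0.12 without C26-bearing replicate 5. The libraries with little miR-5119 gave 1.69 (exact permutation p = 0.100, adjusted 0.300), and those rich in it gave -0.81.

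The ratio of miR-215-5p to miR-194-5p, neighbours on chromosome 1, was 6.68, 15.4, 14.2 and 3.44 in control replicates 1 to 4. It was 4.73, 3.35, 8.06, 3.42 and 4.13 in C26-bearing replicates 1 to 5. C26-bearing replicate 6, with 136 counts against 6, had the highest ratio of all plasma libraries, so the groups overlapped over nearly their whole range. The log2 ratios were 2.54 ± 1.02 (SD, n = 6) and 3.07 ± 1.02 (SD, n = 4), a difference of -0.54 (exact permutation test, two-sided p = 0.419, adjusted 0.824). The libraries with little miR-5119 gave -0.29, and those rich in it gave 0.41. With 6 libraries against 4, the smallest p this test allows is 0.00476.

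**Figure D3:**
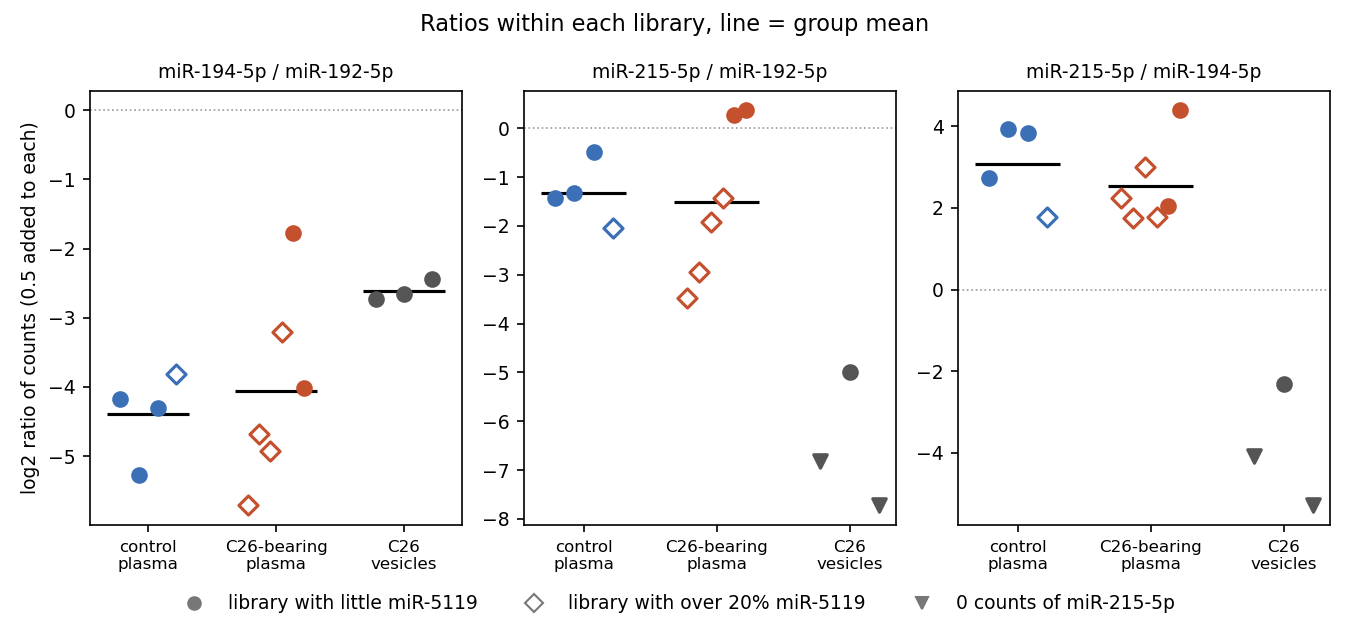
Log2 ratios of counts within each library for the 3 pairs; each point is 1 library, lines are group means, diamonds are libraries with over 20% miR-5119, and triangles have 0 counts of miR-215-5p, so the added 0.5 sets their place. The ratio of miR-215-5p to miR-192-5p is above 0 only in C26-bearing replicates 5 and 6, at 0.28 and 0.37.

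In vesicles of cultured C26 cells the members were scarce and miR-215-5p was near absent. miR-192-5p had 56, 47 and 105 counts (382, 418 and 616 CPM, unscaled), a mean of 472 ± 126 CPM (SD, n = 3). miR-194-5p had 8, 7 and 19 counts, a mean of 76.1 ± 30.8 CPM. miR-215-5p had 0, 1 and 0 counts. The 0 in replicates 1 and 3 allows up to 20.5 and 17.6 CPM. Over all 3 libraries the single count gives 2.33 CPM (95% Poisson interval 0.0590 to 13.0, counting error only). The hepatocyte miRNA miR-122-5p had 29, 33 and 64 counts in the same libraries (198, 294 and 375 CPM), not far below miR-192-5p. Whether the counts of miR-122-5p or of the members come from the C26 cells was not tested.

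In the make-up of the 3, the share of miR-215-5p in C26 vesicles lay below the plasma range, and that of miR-194-5p only just above it. miR-192-5p made 84.7% to 87.5% of their summed counts in C26 vesicles, miR-194-5p 12.5% to 15.3% and miR-215-5p at most 1.82%. In plasma miR-192-5p made 40.0% to 90.3%, miR-194-5p 1.61% to 11.5% and miR-215-5p 8.06% to 55.1%. In C26 vesicle replicate 1, with 0 counts of miR-215-5p, the 12.5% of miR-194-5p has a 95% Wilson interval of 6.47% to 22.8% (counting error only). This interval spans the highest plasma share. Together the members took 0.0437% to 0.0727% of counts in C26 vesicles, 1.03% to 3.72% in control plasma and 0.504% to 2.25% in C26-bearing plasma. The ratio of miR-194-5p to miR-192-5p was 0.150, 0.158 and 0.185 in C26 vesicles, above 9 of 10 plasma libraries. The materials came in separate tables, so no test was made between them, and a difference between them cannot be told apart from a technical difference between the tables.

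**Figure D4:**
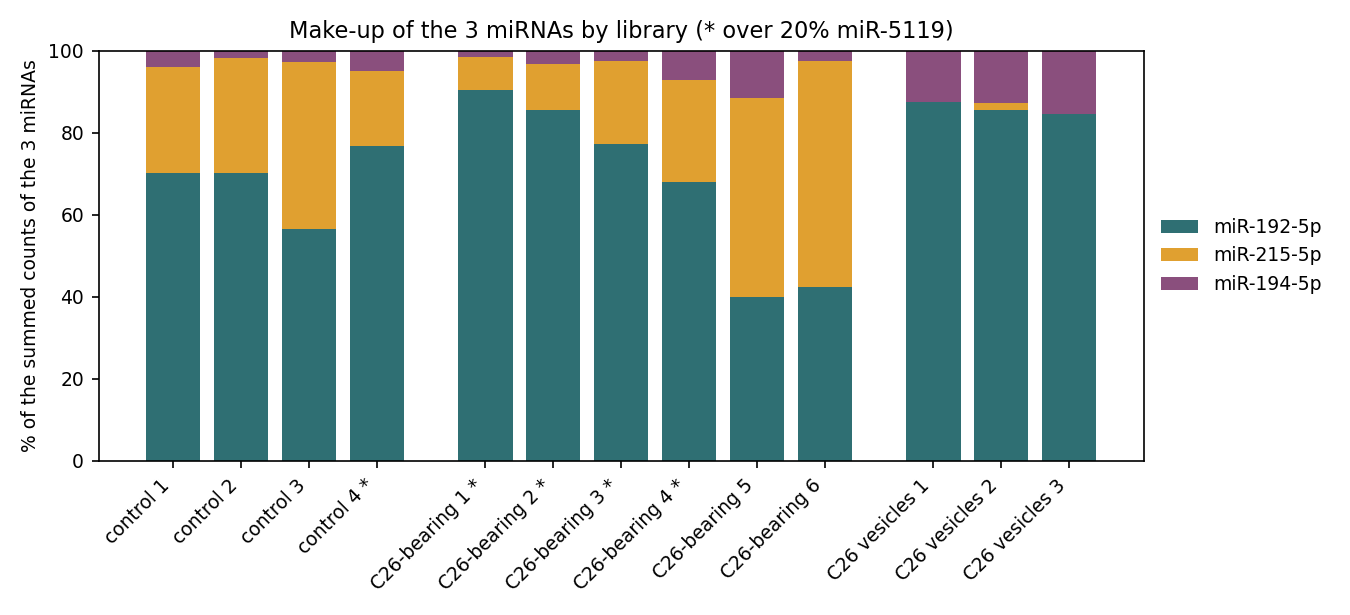
Share (%) of each miRNA in the summed counts of the 3, by library; stacked bars add to 100%, and asterisks mark libraries with over 20% miR-5119. miR-215-5p takes 8.06% to 55.1% in plasma and at most 1.82% in C26 vesicles.

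Likeness across the 10 plasma libraries was measured as the SD of the log2 ratio of 2 miRNAs, small where they keep a constant ratio. All pairs share the depth of the libraries and the miR-5119 sets in this measure, so it is given as a description. The miRNAs most like miR-192-5p were miR-148a-3p, abundant in liver (SD 0.69), the epithelial miR-200a-3p (0.84) and miR-541-5p (0.93). The median was 1.69 over 129 miRNAs. miR-200a-3p had only 201 counts over the 10 plasma libraries, so its SDs are rough. The hepatocyte miRNA miR-122-5p ranked 8 (1.06), miR-194-5p 12 (1.12) and miR-215-5p 24 (1.25). For miR-194-5p the closest were miR-200a-3p (0.55), miR-1843a-5p (0.60) and miR-30a-3p (0.68), with miR-215-5p at rank 25 and miR-192-5p at rank 38. There miR-122-5p ranked 72 (1.62), above the median of 1.52. For miR-215-5p the closest were miR-30d-5p (0.55), miR-99a-5p (0.64) and miR-24-2-5p (0.69), with miR-194-5p at rank 31, miR-192-5p at 48 and miR-122-5p at 63. No member was among the 3 closest of another, and the SDs between members, 1.00 to 1.25, were below the median of each.

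miR-122-5p, made almost only by hepatocytes, had a log2 fold change of -1.92 (SE 0.819, edgeR adjusted p = 0.395). With no filter on low counts it passed the test at -2.14 (SE 0.488, edgeR adjusted p = 0.0103). That fit called 4 of 955 miRNAs and had a median log2 fold change of 0.88. Over all alternatives the adjusted p of miR-122-5p ran from 0.0103 to 0.998. For miR-122-5p too the value was nearer 0 in the libraries rich in miR-5119 (-0.69, with 1 control) than in the others (-2.55, SE 1.21, edgeR adjusted p = 0.462). With the miR-5119 term it was -1.98 (SE 0.973). The ratio of miR-192-5p to miR-122-5p was 0.102, 0.102, 0.201 and 0.136 in control replicates 1 to 4. It was 0.248, 0.284, 0.765, 0.174, 0.454 and 0.0683 in C26-bearing replicates 1 to 6, above all controls in 4 libraries and below all in 1. The ratio of miR-215-5p to miR-122-5p was 0.0332 to 0.145 in controls and 0.0225 to 0.549 in C26-bearing mice.

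Lists of miRNAs from tissues that also express the members were set beside them, and 0 of their tested miRNAs passed an edgeR adjusted p of 0.05 (0% called over all 130). Of 7 liver miRNAs 4 were tested, 2 below 0 and 2 above, with a median log2 fold change of -0.35. Beside miR-122-5p, miR-148a-3p had -0.71 (SE 0.509), miR-101b-3p 0.80 (SE 0.749) and miR-22-3p 0.0077 (SE 0.470). The list took 14.3% to 38.4% of counts in control and 5.19% to 22.4% in C26-bearing plasma. It also took 4.08% to 5.44% in vesicles of cultured C26 cells, so its share is not a measure of liver RNA alone. Of 9 miRNAs of intestine and other epithelium 4 were tested, 3 of them below 0, with a median of -0.78, beside a median of 0.0057 over all miRNAs. In this list miR-375-3p, of pancreatic islets and gut endocrine cells, had -2.54 (SE 0.779). The value of miR-200a-3p was -1.09 (SE 0.508), and miR-205-5p, of stratified epithelium, had -0.46 (SE 0.617). The skin miRNA miR-203-3p, the most counted of the list with 1753 plasma counts, had 0.22 (SE 0.530). The list took 0.239% to 0.929% of counts in controls and 0.171% to 0.758% in C26-bearing plasma. Of 6 kidney miRNAs 4 were tested, 2 below 0 and 2 above, with a median of 0.12, and miR-30c-5p had 0.71, miR-30a-5p 0.43 and miR-10a-5p -0.39. Their part in the values of the members was not tested.

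The miRNAs that p53 induces along with miR-192 and miR-215, among them the miR-34 family, were nearly unread in plasma. Of 6 listed 0 were tested, and most of their plasma counts were the 61 of miR-145a-5p. miR-34a-5p had 3 counts over all plasma libraries, miR-34b-3p and miR-34c-5p 2 each, miR-107-3p 1 and miR-34b-5p 0. They took 0.222% to 0.310% of counts in C26 vesicles. Red cell miRNAs, 5 of 5 tested, had 3 below 0 and a median of -0.026, with miR-144-3p at -1.13 (SE 0.539), miR-16-5p at 1.30 (SE 0.901) and miR-144-5p at 0.83 (SE 0.900). They took 3.52% to 52.7% of counts in C26-bearing and 6.02% to 31.3% in control plasma. White cell and platelet miRNAs, 6 of 6 tested, were all above 0 with a median of 0.51, with miR-142a-3p at 1.98 (SE 0.914), miR-223-3p at 2.27 (SE 1.72) and miR-126a-3p at 0.37 (SE 0.374). They took 0.735% to 2.08% and 0.980% to 1.75%. By miR-5119 set, miR-223-3p had 203 to 1466 TMM-scaled CPM in the 5 rich libraries and 0 to 61.5 in the other 5. miR-16-5p likewise had 1221 to 6107 and 246 to 755, while miR-142a-3p, at 173 to 1521 and 35.0 to 316, overlapped between the sets. The most counted red cell miRNA, miR-486a-5p, went the other way, at 17047 to 41708 in the rich libraries and 147128 to 579105 in the others. miR-451a, at 17583 to 48997 and 14452 to 41569, overlapped. How many of all miRNAs tested separate by set was not counted. The part of blood cell RNA in the members' values was not tested.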

How the data were processed

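Per the labels' protocols, vesicles were pelleted from plasma or conditioned medium by ultracentrifugation, RNA was isolated with TriPure, and libraries were made with a NEBNext small RNA kit and sequenced on a NextSeq500. Tools named are bcl2fastq and cutadapt 1.10, per the submitters' processing notes, while aligner, counter and build were not given in the sources used here. Each deposited value is a raw count of reads for 1 mature miRNA, in separate tables for plasma and for C26 vesicles.

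Computed here: the plasma table was filtered with filterByExpr (minimum count 10, 130 miRNAs kept), TMM-scaled and fitted with edgeR 4.0.16 (robust quasi-likelihood test, Benjamini-Hochberg adjustment, threshold 0.05) in R 4.3.3. SEs are the absolute log2 fold change divided by the root of F. Ratios were tested over all 210 splits of 10 libraries, counting splits with an absolute difference in means at least as large. Alternatives used DESeq2 1.42.0 and limma 3.58.1, other scalings and filters, and subsets of libraries. Python 3.11.15 and scipy 1.17.1 did the rest. The fit was tested on simulated data.

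Named were the 3 members, the other arms of their hairpins, miR-122-5p, up to 3 miRNAs per list by smallest p, and the 3 most like each member. miR-486a-5p and miR-451a were added after their values were seen. The p53 list, with no miRNA tested, is given by counts, chosen after its values were seen. Members and lists were chosen with earlier results of these data known.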

Additional observations from a re-analysis of the deposited data

Results flagged for a closer look

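miR-194-5p in control plasma had 1 library far from the rest. Control replicate 1 stood at 1599 TMM-scaled CPM against 555, 570.0 and 691 in the other controls, and the gap to the nearest was 0.870 of the group's whole range (Dixon's 95% limit for 4 libraries is 0.829). It is the library with the most counts of miR-194-5p, 182. The check was made on 12 sets of values (3 levels and 3 ratios in each plasma group), and chance flags about 1 in 20.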

How the results depend on the processing

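The log2 fold changes of miR-192-5p, miR-194-5p and miR-215-5p stayed below 0 under TMM, RLE and total-count scaling, where the median over all miRNAs was 0.0057, 0.19 and -0.071. With each library left out in turn they ran from -1.37 to -0.68, -1.23 to -0.42 and -1.76 to -1.30. Over 24 alternatives each, the exceptions to direction and call were miR-192-5p within libraries rich in miR-5119 (0.23, with 1 control) and miR-215-5p with limma voom (-1.83, called). The cause of each was not tested. The count of miRNAs called, 0 with edgeR, was 4 without a filter and with DESeq2, 17 with voom, 2 with the miR-5119 term, 1 within libraries rich in miR-5119 and 0 to 1 with 1 library left out (1 without C26-bearing replicate 2 and without replicate 3). At an unadjusted p under 0.05 the count of 15 of 130 was 95 of 955 without a filter (23 lower, 72 higher), 30 of 335 with a filter of 10 CPM in 4 libraries (10 lower, 20 higher), 51 with voom (25 lower, 26 higher), 25 of 150 without libraries under 10000 counts (6 lower, 19 higher), 1 without both controls whose descriptions carry 2 numbers, and 8 to 30 with 1 library left out.

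Deviations from the group mean in same-numbered plasma libraries had correlations of -0.37, -0.29, -0.30 and 0.16 for replicates 1 to 4. Control replicate 4, the only control rich in miR-5119, gave 0.64, 0.27, 0.49 and 0.16 with C26-bearing replicates 1 to 4, all rich in it. The other controls gave -0.55 to -0.028 with them, so the check cannot separate pairing from the miR-5119 sets. The sources used here do not say that the numbers mark pairs, so they were not taken as pairs. With a replicate block on replicates 1 to 4, the log2 fold changes were -0.59, -0.88 and -1.83, and 31 of 138 miRNAs had an unadjusted p under 0.05 (17 lower, 14 higher). The same 8 libraries with no block, an alternative chosen after seeing the data, gave 38 (22 lower, 16 higher), with 2 called. In these libraries every C26-bearing replicate is rich in miR-5119 and, of the controls, only replicate 4 is. Group and miR-5119 set therefore nearly coincide in these counts and in the paired differences. The paired difference in the log2 ratio of miR-194-5p to miR-192-5p was -0.24, of miR-215-5p to miR-192-5p -1.12 and of miR-215-5p to miR-194-5p -0.88.

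No ratio had an adjusted p under 0.300 in any alternative, and each changed direction in at least 1. With 1 library left out the differences ran from -0.12 to 0.67 for miR-194-5p to miR-192-5p, from -0.58 to 0.19 for miR-215-5p to miR-192-5p and from -0.97 to -0.25 for miR-215-5p to miR-194-5p. Without both controls with 2 numbers they were -0.056, 0.22 and 0.27. Within libraries rich in miR-5119 the first was -0.81 and the third 0.41, and within the others the second was 1.40. The 3 miRNAs closest to each member were the same 3 with 1 added in place of 0.5. Depth limits miR-194-5p most, with under 10 counts in 5 plasma libraries.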
